A study of Homo sapiens with 16 samples.

Results

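Immediate early genes are transcribed within minutes of a stimulus and give short-lived transcripts. A list of 39 such genes, and of genes with similarly unstable transcripts, was examined in irradiated A549 cells. Array features carrying these symbols were taken (CCN1 and CCN2 also under their older names), features of the same symbol were averaged, and 38 of the 39 genes were measured, out of 18334 named genes. EGR2 had no feature under its symbol. The 38 genes were covered by 86 features, from 1 feature for SNAI1 or DUSP6 to 10 for JUN and 12 for MYC.

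The list holds subunits of AP-1 (the FOS, JUN and ATF families), zinc finger factors of the EGR and KLF families, the NR4A orphan receptors, MAP kinase phosphatases of the DUSP family, and the ZFP36 proteins that bind AU-rich elements and bring about mRNA decay. Growth factors and cell stress switch these genes on through MAP kinases, serum response factor and preexisting transcription factors, without new protein synthesis. Their products include both the activators of a later wave of genes and the phosphatases and decay factors that end the response. A transcript with a short half-life follows changes in its synthesis closely, so its level can move up and down within hours.

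A549 is an established human lung adenocarcinoma line. Cells received carbon ions (C12), which deposit energy densely along their tracks, or 6 MV X-rays from a linear accelerator, and were collected after 4h or 1h, with 4 arrays in each of the groups C12 4h, C12 1h, X-ray 4h and X-ray 1h. Per the labels, a culture was split into an irradiated and an unirradiated plate, both RNAs were hybridised to 1 two-colour array with the dyes Cy3 and Cy5 swapped in a balanced way, and RNA from separate experiments was pooled before labelling. The radiation dose is not given in the sources used here, and C12 and X-ray values therefore describe these exposures and not equal doses. The cells are a single tumour line, and log ratios give no levels, so lung markers could be checked for a shift between plates but not for presence.

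Values are log2 ratios that likely run irradiated over control. The labelled dyes did not settle the direction: C12 arrays of the same labelled orientation correlated over features with r between -0.869 and 0.853 (median -0.831). Replicates 1 and 2 of each group were therefore multiplied by -1, the reading under which CDKN1A and GDF15, p53 targets used as the direction control, read above 0 at 4h and 1h after X-rays. CDKN1A averaged 1.45 ± 0.12 at 4h and 1.02 ± 0.12 at 1h after X-rays (SE), and GDF15 1.74 ± 0.19 and 1.76 ± 0.19. With the opposite sign every value below would change direction while its size and test stayed as they are. A difference between replicates 1 and 2 and replicates 3 and 4 that is not due to radiation cannot be told apart from a response.

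A gene was called changed where limma's test across all 18334 genes gave a Benjamini-Hochberg adjusted p under 0.05. The fit had a dye coefficient for each radiation quality and pooled the spread of all 16 arrays. The residual SD was 0.160 for C12 and 0.373 for X-rays, and the pooled standard errors (SE) mix the spreads. At C12 4h they were larger than those from the C12 arrays alone in 37 of 38 genes of the list (EGR1 was the exception), and at X-ray 4h smaller than those from the X-ray arrays alone in 36 of 38 (EGR1 and DUSP5 were the exceptions). For each gene named as called after X-rays, the adjusted p from the 8 X-ray arrays alone is therefore given as well.

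Few of the immediate early genes passed the test at these times. At 4h after X-rays, FOSL2, an AP-1 subunit, rose and SNAI1, a repressor of E-cadherin transcription, fell. These were 1 of 38 higher, against 1.03% of all genes, and 1 of 38 lower, against 0.18% of all genes. None passed at 1h after X-rays, where 0.0764% of all genes were called higher and 0.0109% lower, and none at 4h after C12, where 0.0109% were called higher and 0 lower. At 1h after C12 no gene of any kind was called, and 92 genes, 1 of them of this list, had an unadjusted p under 0.05 in limma's test.

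The median ratio over the 38 genes stayed near 0 in each group. It was 0.05 at 4h after C12, -0.003 at 1h after C12, 0.05 at 4h after X-rays and -0.02 at 1h after X-rays, while the medians over all genes lay between 0.001 and 0.005. After C12, 28 of the 38 genes were above 0 at 4h, against 53.5% of all genes, and 19 at 1h, against 51.4%. After X-rays, 24 were above 0 at 4h, against 50.3% of all genes, and 16 at 1h, against 50.8%. Without replicate 4 of C12 4h, an array described further on, the count at C12 4h was 23. These counts describe the estimates and carry no test. At an unadjusted p under 0.05, X-ray 4h had 6 of the 38 higher (6.75% of all genes) and 2 lower (3.8%), and X-ray 1h had 5 higher (3.04%) and 4 lower (2.3%). At 4h after C12, 2 were higher (0.453% of all genes) and 1 lower (0.245%).

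**Figure D1:**
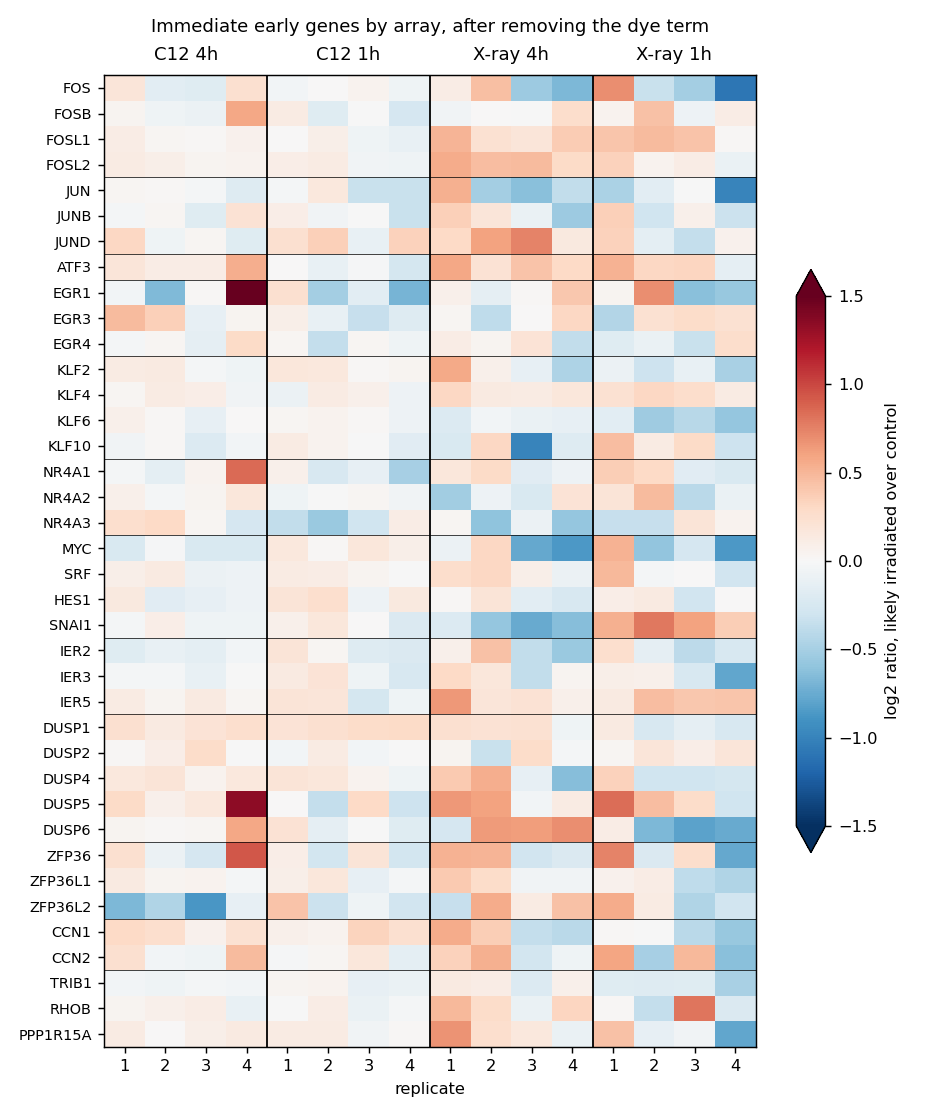
Each row is a gene and each column an array, grouped by radiation, time and replicate, and the colour is the log2 ratio, likely irradiated over control, after the fitted dye term was removed. Most cells are pale. SNAI1 is blue on the 4 X-ray 4h arrays and red on the 4 X-ray 1h arrays, and replicate 4 of C12 4h shows EGR1, DUSP5, ZFP36 and NR4A1 in the strongest red of their rows.

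SNAI1 was the gene of the list that differed most clearly between the times after X-rays. It had been named for a closer look with earlier results of these data known, so its values here are no independent test. SNAI1 (Entrez 6615, 1 feature) encodes a zinc finger repressor that binds E-boxes, silences the E-cadherin gene in epithelial cells and has a short-lived transcript and protein. On the X-ray 4h arrays it read -0.26, -0.54, -0.71 and -0.69 in replicates 1 to 4, and on the X-ray 1h arrays 0.49, 0.84, 0.65 and 0.33. The groups did not overlap: SNAI1 was below 0 on 4 of 4 arrays at 4h and above 0 on 4 of 4 arrays at 1h.

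The SNAI1 means were -0.55 ± 0.21 at 4h and 0.58 ± 0.22 at 1h after X-rays (SD, n = 4 each). The difference, 4h minus 1h, was -1.12 ± 0.15 (SE, adjusted p = 0.00847). SNAI1 ranked 2 of 18334 genes by p and was 1 of 3 genes called in this comparison (2 higher, 0.0109% of all genes, and 1 lower, 0.00545%). It was also the gene of the list whose X-ray arrays separated the times without overlap, lower at 4h, a pattern shown by 0.262% of all genes. None of the list lay higher at 4h without overlap (0.693% of all genes). After C12, the times separated in 0 of 38 genes, against 0.0327% of all genes higher at 4h and 0.0764% lower.

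Against the control plate, SNAI1 fell at 4h (-0.55 ± 0.11, SE, adjusted p = 0.0135), while its value at 1h, 0.58 ± 0.11, missed the threshold (adjusted p = 0.0547). The X-ray arrays alone kept neither call: the adjusted p was 0.348 for 4h and 0.931 for 4h minus 1h, with the same estimates. Leaving out 1 array also ended calls. Without X-ray 4h replicate 3 the adjusted p was 0.0900 for 4h and 0.0771 for the difference in time, without X-ray 4h replicate 4 it was 0.0924 for 4h, and without X-ray 1h replicate 2 it was 0.0525 for the difference.

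After C12, SNAI1 read -0.52, 0.59, -0.56 and 0.43 at 4h and -0.42, 0.66, -0.49 and 0.27 at 1h in replicates 1 to 4. Replicates 2 and 4, with the irradiated plate in Cy5, were high and replicates 1 and 3, with it in Cy3, were low at both times. With the dye term removed, the means were -0.02 ± 0.08 at 4h and 0.01 ± 0.16 at 1h (SD, n = 4 each), and 4h minus 1h was -0.02 ± 0.15 (SE). The time difference after X-rays was set against that after C12 in an interaction test added later. X-rays minus C12 was -1.1 ± 0.22 (SE), which ranked 1 of 18334 genes by p, but the adjusted p was 0.9997. No gene was called for this interaction by limma, and 340 had an unadjusted p under 0.05.

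DUSP6, a cytoplasmic phosphatase that inactivates ERK and is itself induced by ERK signalling, came second among the 38 genes of the list by p in the X-ray time comparison. After X-rays it read -0.45, 0.84, 0.82 and 0.50 at 4h and -0.09, -0.48, -0.61 and -0.96 at 1h in replicates 1 to 4. Replicates 2 to 4 were high at 4h and low at 1h, and replicate 1 ran apart at both times, so that the groups overlapped. The difference, 4h minus 1h, was 0.96 ± 0.24 (SE, adjusted p = 0.299). With X-ray 4h replicate 2 left out the adjusted p was 0.0499, and with X-ray 1h replicate 1 left out 0.0185. On the X-ray arrays alone the adjusted p of the difference was 0.9999. After C12, DUSP6 read -0.39, 0.45, -0.41 and 1.02 at 4h and -0.23, 0.30, -0.44 and 0.26 at 1h, again high with the irradiated plate in Cy5, and 4h minus 1h was 0.20 ± 0.24 (SE).

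FOSL2 (Entrez 2355, 4 features) encodes a FOS family subunit of AP-1. After X-rays it read 0.56, 0.45, 0.47 and 0.30 at 4h and 0.36, 0.04, 0.10 and -0.09 at 1h in replicates 1 to 4. All 4 arrays were above 0 at 4h, and the highest array at 1h lay among them. FOSL2 rose at 4h (0.45 ± 0.10, SE, adjusted p = 0.0250) and had 0.10 ± 0.10 at 1h, with a difference of 0.34 ± 0.14 that did not pass (adjusted p = 0.696). On the X-ray arrays alone the adjusted p at 4h was 0.623. It was 0.148 without X-ray 4h replicate 1 and 0.0866 without X-ray 4h replicate 3. After C12, FOSL2 read -0.22, 0.43, -0.30 and 0.39 at 4h and -0.24, 0.47, -0.40 and 0.28 at 1h, and the fitted values were 0.07 ± 0.10 at 4h and 0.03 ± 0.10 at 1h (SE).

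KLF6, a zinc finger factor that activates CDKN1A in several cell types, was below 0 on all 8 X-ray arrays. With SNAI1 it made 2 of 38 genes below 0 on the 4 arrays of X-ray 4h, against 2.9% of all genes. It read -0.24, -0.01, -0.06 and -0.16 at 4h and -0.19, -0.50, -0.38 and -0.61 at 1h in replicates 1 to 4. The times overlapped through replicate 1, whose values at 4h and 1h were close. The fitted values were -0.12 ± 0.10 at 4h and -0.42 ± 0.10 at 1h (SE), and neither passed (adjusted p = 0.720 and 0.238). Without X-ray 1h replicate 1 the value at 1h passed (adjusted p = 0.0431). On the X-ray arrays alone the adjusted p at 1h was 0.99997. After C12, KLF6 read -0.05, 0.16, -0.25 and 0.14 at 4h and -0.11, 0.19, -0.11 and 0.06 at 1h, with fitted values of -0.003 ± 0.10 and 0.01 ± 0.10 (SE).

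JUND, the AP-1 subunit that is made in resting cells as well, was above 0 on all 4 X-ray 4h arrays. It read 0.78, 0.12, 0.27 and 0.62 at 4h and 0.82, -0.62, -0.83 and 0.54 at 1h after X-rays, in replicates 1 to 4. At 1h the arrays with the irradiated plate in Cy5 (replicates 1 and 4) were high and the others low. The fitted values were 0.45 ± 0.13 at 4h (SE, adjusted p = 0.149) and -0.02 ± 0.13 at 1h. After C12, JUND read -0.61, 0.86, -0.89 and 0.74 at 4h and -0.69, 1.27, -1.04 and 1.27 at 1h, and 0.02 ± 0.13 and 0.21 ± 0.13 remained once the dye term was fitted (SE).

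**Figure D2:**
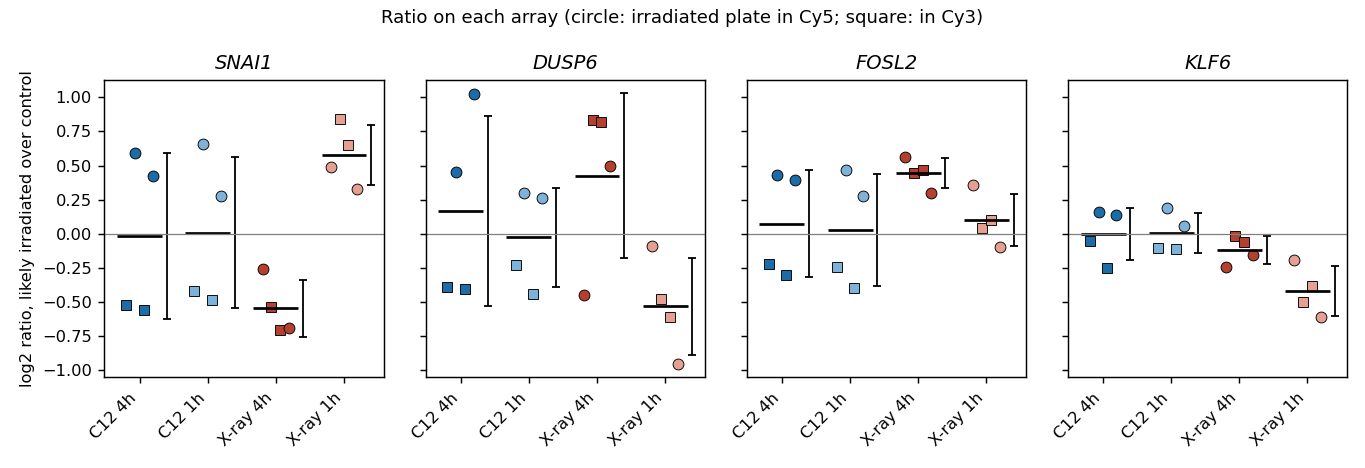
Points are single arrays, with the log2 ratio, likely irradiated over control, on the vertical axis and the 4 groups along the horizontal axis. Circles have the irradiated plate in Cy5 and squares in Cy3, the line is the group mean and the bar beside it ± 1 SD. SNAI1 lies below 0 at X-ray 4h and above 0 at X-ray 1h on all 8 arrays, DUSP6 and KLF6 overlap between the times, and the C12 arrays of each gene split by dye.

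Of the 38 measured genes, 26 had a promoter in the RefSeq table of the build GRCh38.p14, which gives 250 bases before and 50 bases after the gene's start. The promoters of DUSP6, FOSL2, JUND and KLF6 are shown because these genes, after SNAI1, were among those with the smallest p in the X-ray time comparison. They are written 5′ to 3′ in the direction of the gene. Capitals mark a match, on either strand, to a binding site of the listed families: TGANTCA for AP-1, TGACGTCA for the cAMP response element bound by ATF and CREB factors, or GCGGGGGCG for EGR factors.
DUSP6, chr12:89352452-89352751, minus strand: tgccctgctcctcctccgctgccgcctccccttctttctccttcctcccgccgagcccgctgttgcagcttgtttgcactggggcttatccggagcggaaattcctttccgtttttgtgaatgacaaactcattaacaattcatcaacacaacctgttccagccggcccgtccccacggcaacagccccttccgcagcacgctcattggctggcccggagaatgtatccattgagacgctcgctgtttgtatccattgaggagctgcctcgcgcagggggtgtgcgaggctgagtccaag
FOSL2, chr2:28392608-28392907, plus strand: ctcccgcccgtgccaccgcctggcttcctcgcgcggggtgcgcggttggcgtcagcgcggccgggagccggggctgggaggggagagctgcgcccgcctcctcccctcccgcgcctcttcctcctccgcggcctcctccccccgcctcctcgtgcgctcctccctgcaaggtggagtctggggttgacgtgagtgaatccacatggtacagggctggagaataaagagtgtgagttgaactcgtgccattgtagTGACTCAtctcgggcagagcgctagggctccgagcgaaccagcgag
JUND, chr19:18281573-18281872, minus strand: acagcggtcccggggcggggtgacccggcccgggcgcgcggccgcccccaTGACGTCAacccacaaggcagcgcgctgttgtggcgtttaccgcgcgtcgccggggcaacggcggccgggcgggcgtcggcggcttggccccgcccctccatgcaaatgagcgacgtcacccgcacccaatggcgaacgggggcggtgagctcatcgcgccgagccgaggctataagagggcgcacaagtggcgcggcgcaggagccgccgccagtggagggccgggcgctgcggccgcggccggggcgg
KLF6, chr10:3785160-3785459, minus strand: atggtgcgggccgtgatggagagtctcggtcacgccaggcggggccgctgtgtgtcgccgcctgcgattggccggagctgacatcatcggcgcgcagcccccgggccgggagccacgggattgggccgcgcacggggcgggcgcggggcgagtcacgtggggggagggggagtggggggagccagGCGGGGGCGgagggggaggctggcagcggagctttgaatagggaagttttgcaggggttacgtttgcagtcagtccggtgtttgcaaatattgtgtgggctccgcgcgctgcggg

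In these windows, FOSL2 had an AP-1 match that begins 4 bases after the start, JUND a cAMP response element at position -200 and KLF6 an EGR match at position -65. The DUSP6 window held none of these letters. Across the list, AP-1 letters occurred in 1 of 26 promoters (7.76% of 27305 promoters), the cAMP response element in 3 of 26 (1.98%; DUSP1, JUND and PPP1R15A) and the EGR site in 4 of 26 (5.02%; DUSP2, KLF2, KLF6 and SRF). The CArG box bound by serum response factor was found in EGR1 and SRF (2 of 26, against 1.29%), and TATAAA in 7 of 26 (12% of all promoters). E-boxes of the form CANNTG, which include the form CAGGTG bound by SNAI1, were in 13 of 26 (68.9%), and CAGGTG itself in 0 of 26 (20.6%). A match of letters is not a bound site.

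The FOS family showed its clearest values after X-rays. FOSL1, another AP-1 subunit, whose protein is stabilised by ERK activity, read 0.37, 0.37, 0.32 and 0.24 at 4h and 0.28, 0.61, 0.56 and -0.12 at 1h after X-rays, in replicates 1 to 4. All 4 arrays were close together above 0 at 4h (SD 0.06), and 3 of 4 were above 0 at 1h. The fitted values were 0.32 ± 0.10 at 4h and 0.33 ± 0.10 at 1h (SE, adjusted p = 0.179 and 0.688). After C12, FOSL1 read -0.23, 0.37, -0.32 and 0.41 at 4h and -0.33, 0.43, -0.41 and 0.23 at 1h, a split by dye around fitted values of 0.06 ± 0.10 and -0.02 ± 0.10 (SE). FOS, the founding subunit, had 0.02 at 4h and -0.01 at 1h after C12, and -0.16 at 4h and -0.31 at 1h after X-rays, each ± 0.21 (SE). FOSB had 0.12 and -0.08 at 4h and 1h after C12, and 0.05 and 0.13 at 4h and 1h after X-rays, each ± 0.12 (SE).

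JUN and JUNB, the partners of FOS in AP-1, did not pass in any comparison. JUN had -0.04 at 4h and -0.13 at 1h after C12, and -0.24 at 4h and -0.41 at 1h after X-rays, each ± 0.17 (SE). It was below 0 on all 4 X-ray 1h arrays, as were KLF2, KLF6, DUSP6 and TRIB1, which makes 5 of 38 genes against 3.14% of all genes. JUNB had 0.01 and -0.08 at 4h and 1h after C12, and -0.03 and -0.05 at 4h and 1h after X-rays, each ± 0.14 (SE).

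ATF3, a stress-induced factor of the ATF family that p53 can also activate, was above 0 on 4 of 4 X-ray 4h arrays, as were FOSL1, FOSL2, JUND and DUSP5, which makes 5 of 38 genes against 5.14% of all genes. It read 0.52, 0.28, 0.48 and 0.25 at 4h and 0.47, 0.37, 0.38 and -0.19 at 1h after X-rays, in replicates 1 to 4. The fitted values, 0.38 ± 0.12 at 4h and 0.25 ± 0.12 at 1h, did not pass (SE, adjusted p = 0.165 and 0.934). After C12, ATF3 read -0.07, 0.36, -0.14 and 0.78 at 4h and -0.24, 0.14, -0.26 and -0.02 at 1h. The fitted values were 0.23 ± 0.12 at 4h and -0.10 ± 0.12 at 1h after C12, and the difference, 0.33 ± 0.16, had the smallest p of the list in the C12 time comparison but did not pass (SE, adjusted p = 0.99999). Without replicate 4 of C12 4h, the value at 4h was 0.11 and the difference 0.21.

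The zinc finger factors of the EGR family, which growth factor signalling induces, gave small values after X-rays. EGR1 had 0.09 at 4h and -0.12 at 1h, each ± 0.29 (SE). EGR3 had 0.19 and -0.14 at 4h and 1h after C12, and -0.01 and 0.07 at 4h and 1h after X-rays, each ± 0.14 (SE). EGR4 had 0.04 and -0.09 at 4h and 1h after C12, and -0.001 and -0.09 at 4h and 1h after X-rays, each ± 0.12 (SE). None passed, and the SE of EGR1 was the largest of the list.

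Of the other Kruppel-like factors, KLF2, which restrains proliferation in several cell types, had 0.04 and 0.10 at 4h and 1h after C12, and 0.02 and -0.25 at 4h and 1h after X-rays, each ± 0.13 (SE). KLF4, a p53-responsive factor that activates CDKN1A, had 0.05 and 0.01 at 4h and 1h after C12, and 0.19 and 0.24 at 4h and 1h after X-rays, each ± 0.09 (SE). KLF10, induced by TGF-beta, had -0.07 and 0.001 at 4h and 1h after C12, and -0.27 and 0.14 at 4h and 1h after X-rays, each ± 0.16 (SE). None of these passed over all arrays. Without X-ray 4h replicate 2, an array that stood apart over all genes, KLF10 did at X-ray 4h, as described below.

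The NR4A orphan receptors act without a known ligand and are controlled through their synthesis. NR4A3 read 0.75, -0.21, 0.53 and -0.76 at 4h and 0.13, -1.06, 0.21 and -0.39 at 1h after C12, in replicates 1 to 4. Here the arrays with the irradiated plate in Cy3 were high, the opposite of most of the list. After X-rays NR4A3 read -0.10, -0.47, 0.04 and -0.71 at 4h and -0.48, -0.22, 0.32 and -0.07 at 1h. Its fitted values were 0.08 and -0.28 at 4h and 1h after C12, and -0.31 and -0.11 at 4h and 1h after X-rays, each ± 0.14 (SE), and none passed. NR4A1 had 0.18 and -0.19 at 4h and 1h after C12, and 0.05 and 0.07 at 4h and 1h after X-rays, each ± 0.15 (SE). NR4A2 had 0.06 and -0.02 at 4h and 1h after C12, and -0.15 and 0.04 at 4h and 1h after X-rays, each ± 0.13 (SE).

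Among the remaining transcription factors, MYC, a driver of growth and ribosome synthesis, had -0.17 and 0.11 at 4h and 1h after C12, and -0.35 and -0.30 at 4h and 1h after X-rays, each ± 0.19 (SE). Serum response factor (SRF), itself an immediate early gene, had 0.01 and 0.07 at 4h and 1h after C12, and 0.14 and 0.05 at 4h and 1h after X-rays, each ± 0.11 (SE). HES1, a repressor induced by Notch, had -0.05 and 0.13 at 4h and 1h after C12, and -0.05 and -0.01 at 4h and 1h after X-rays, each ± 0.11 (SE). None passed over all arrays.

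The IER genes are early response genes without a common protein family. IER2 had -0.12 and -0.05 at 4h and 1h after C12, and -0.10 and -0.13 at 4h and 1h after X-rays, each ± 0.14 (SE). IER3, a regulator of survival signalling, had -0.04 and 0.01 at 4h and 1h after C12, and 0.03 and -0.21 at 4h and 1h after X-rays, each ± 0.14 (SE). IER5, which is related in sequence to IER2, had 0.08 and 0.01 at 4h and 1h after C12, and 0.28 and 0.36 at 4h and 1h after X-rays, each ± 0.11 (SE). IER5 did not pass, but was above 0 on 4 of 4 X-ray 1h arrays together with SNAI1 and DUSP2 (3 of 38, against 3.58% of all genes).

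The DUSP phosphatases switch off MAP kinases. DUSP1, a nuclear phosphatase of p38 and JNK, read -0.39, 0.76, -0.41 and 0.88 at 4h and -0.42, 0.86, -0.35 and 0.91 at 1h after C12, in replicates 1 to 4. Removing the dye term left values between 0.14 and 0.29 on all 8 C12 arrays, with fitted values of 0.21 ± 0.10 at 4h and 0.25 ± 0.10 at 1h (SE). These did not pass over all arrays. On the 8 C12 arrays alone the estimates had SE 0.05 and adjusted p of 0.459 at 4h and 0.99996 at 1h. DUSP1 is the mean of 2 features that differed after C12. The lower read 0.01 at 4h and -0.02 at 1h, and the higher 0.40 and 0.52. After X-rays DUSP1 read 0.19, 0.27, 0.28 and -0.12 at 4h and 0.08, -0.18, -0.08 and -0.30 at 1h, with fitted values of 0.15 ± 0.10 and -0.12 ± 0.10 (SE). The time groups overlapped.

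DUSP5, a nuclear phosphatase of ERK, read -0.45, 0.81, -0.57 and 2.07 at 4h and -0.72, 0.37, -0.43 and 0.42 at 1h after C12, in replicates 1 to 4. Replicate 4 at 4h stood above the rest. After X-rays it read 0.59, 0.66, 0.02 and 0.07 at 4h and 0.79, 0.52, 0.33 and -0.35 at 1h. Replicates 1 and 2 were high at both times. The fitted values of DUSP5 were 0.47 and -0.09 at 4h and 1h after C12, and 0.33 and 0.32 at 4h and 1h after X-rays, each ± 0.20 (SE), and none passed. DUSP2 had 0.10 and 0.01 at 4h and 1h after C12, and -0.01 and 0.12 at 4h and 1h after X-rays, each ± 0.10 (SE). DUSP4 had 0.14 and 0.09 at 4h and 1h after C12, and 0.04 and -0.13 at 4h and 1h after X-rays, each ± 0.15 (SE).

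The ZFP36 proteins bind AU-rich elements in many of the transcripts listed here and promote their decay. ZFP36L2 read -1.73, 0.60, -1.93 and 0.93 at 4h and -0.63, 0.73, -1.12 and 0.77 at 1h after C12, in replicates 1 to 4. The arrays with the irradiated plate in Cy5 were nearly equal at both times, and those with it in Cy3 were lower at 4h. The fitted value was -0.53 ± 0.18 at 4h, which had the smallest p of the list at C12 4h but did not pass (SE, adjusted p = 0.99998), and -0.06 ± 0.18 at 1h, with a difference of -0.47 ± 0.25. On the 4 arrays of C12 4h alone the value at 4h passed (adjusted p = 0.00109), and on the 8 C12 arrays it did not (adjusted p = 0.458). After X-rays ZFP36L2 read -0.32, 0.53, 0.10 and 0.47 at 4h and 0.59, 0.10, -0.48 and -0.26 at 1h, groups that overlapped, with fitted values of 0.19 ± 0.18 and -0.01 ± 0.18 (SE). ZFP36 had 0.21 and -0.06 at 4h and 1h after C12, and 0.13 and 0.01 at 4h and 1h after X-rays, each ± 0.22 (SE). ZFP36L1 had 0.05 and 0.03 at 4h and 1h after C12, and 0.14 and -0.17 at 4h and 1h after X-rays, each ± 0.12 (SE).

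The last group holds secreted and signalling proteins. CCN1, a matricellular protein induced by YAP and serum response factor, had 0.21 and 0.17 at 4h and 1h after C12, and 0.04 and -0.24 at 4h and 1h after X-rays, each ± 0.15 (SE). CCN2, its relative, had 0.15 and 0.01 at 4h and 1h after C12, and 0.13 and -0.01 at 4h and 1h after X-rays, each ± 0.18 (SE). None passed. TRIB1, a pseudokinase that targets proteins for degradation, had -0.04 and -0.03 at 4h and 1h after C12, and 0.03 and -0.26 at 4h and 1h after X-rays, each ± 0.10 (SE). RHOB, a small GTPase known to respond to DNA damage, had 0.03 and -0.01 at 4h and 1h after C12, and 0.25 and 0.06 at 4h and 1h after X-rays, each ± 0.15 (SE). PPP1R15A, a phosphatase subunit that reverses the translation block of the stress response, had 0.09 and 0.05 at 4h and 1h after C12, and 0.25 and -0.13 at 4h and 1h after X-rays, each ± 0.15 (SE), and these did not pass either.

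Across the list, the X-ray values at 4h and 1h differed by a median of 0.13, against 0.01 over all genes, and those after C12 by 0.04. After X-rays, 25 of 38 genes were higher at 4h than at 1h, against 52.0% of all genes. The count after C12 was also 25 of 38, against 51.8% of all genes. For the difference after X-rays, 6 of 38 had an unadjusted p under 0.05 (5 higher, against 3.16% of all genes, and SNAI1 lower, against 3.28%). After the group means and dye were fitted, 28, 20, 19 and 7 of 38 residuals were above 0 on replicates 1 to 4 of X-ray 1h. The X-ray 4h arrays had 31, 27, 10 and 11 of 38. The shares over all genes were not counted, so a shift of the list cannot be told apart from one of whole arrays. The median of the time difference depended on single arrays: it was -0.03 without X-ray 1h replicate 4 and 0.25 without X-ray 1h replicate 1. It was 0.03 without X-ray 4h replicate 1 or 2, and 0.20 without X-ray 4h replicate 3 or 4.

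**Figure D3:**
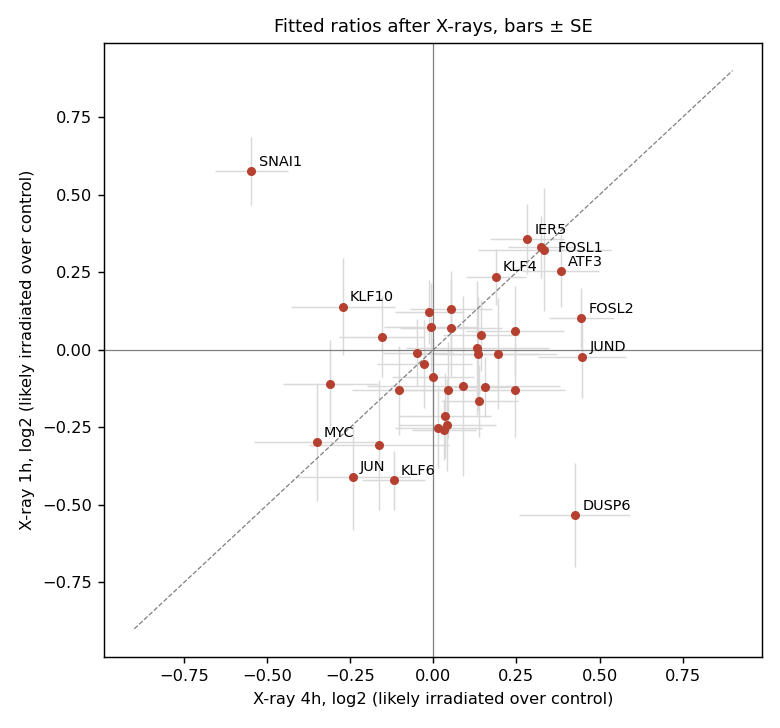
Each point is a gene of the list, with the fitted log2 ratio, likely irradiated over control, at X-ray 4h on the horizontal axis and at X-ray 1h on the vertical axis. Bars are ± 1 SE and the dashed line marks equal values. SNAI1 (-0.55 and 0.58) and DUSP6 (0.43 and -0.53) lie in opposite corners, while FOSL1, ATF3 and IER5 are above 0 at both times.

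After C12, the ratios of most genes of the list were set by the dye of the irradiated plate. The dye coefficient was positive in 33 of 38 genes (median 0.41, from -0.50 for NR4A3 to 1.05 for ZFP36L2) and passed in 32 of 38, against 71.1% of all genes. On X-ray arrays it passed in 3 of 38, against 9.55% of all genes, with a median of 0.04. In each C12 group the dyes were balanced, so the coefficient cancels from the group means. With the fitted dye term removed, 10 of 38 genes were above 0 on all 4 arrays of C12 4h, against 5.88% of all genes: FOSL1, FOSL2, ATF3, IER5, DUSP1, DUSP4, DUSP5, DUSP6, CCN1 and PPP1R15A. MYC, IER2, IER3, ZFP36L2 and TRIB1 were below 0 on all 4 (5 of 38, against 5.42% of all genes). At C12 1h, KLF2, MYC, DUSP1 and CCN1 were above 0 on all 4 arrays (4 of 38, against 5.51% of all genes) and 0 of 38 below (4.24%). These counts were added after the values were seen and carry no test.

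Replicate 4 of C12 4h held several immediate early genes at the top of the array. EGR1 read -1.05, 0.35, -0.996 and 2.93 in replicates 1 to 4 of C12 4h, and 2.93 was the highest value of all 18334 genes on replicate 4. DUSP5 ranked 2 on that array with 2.07, ZFP36 ranked 5 with 1.73 and NR4A1 ranked 18 with 1.15. The highest deposited value was 2.932 and the lowest -3.384 on every array. The value 2.93 therefore marks the top rank, and the sizes here and below follow a scale that all arrays shared as deposited. Replicates 1 and 2 were multiplied by -1, so their scale mirrors that of replicates 3 and 4. Set against replicate 2, which has the same dye orientation, EGR1 was higher by 2.58 (rank 1 of all genes), DUSP5 by 1.27 (rank 8), ZFP36 by 1.02 (rank 17), NR4A1 by 1.00 (rank 19), FOSB by 0.65 (rank 57), DUSP6 by 0.57 (rank 83) and CCN2 by 0.53 (rank 113). These were 7 of 38 genes within the highest 1% of all genes for this difference. The same difference between replicates 3 and 1 put 0 of 38 there, and at C12 1h 1 of 38 (NR4A3, replicate 4 minus 2) and 0 of 38 (replicate 3 minus 1). Other genes of the list were lower on replicate 4 than on replicate 2 of C12 4h. Among them were NR4A3 (-0.55, rank 17955 from the highest) and EGR3 (-0.31, rank 16260). After the group means and dye were fitted, 22 of 38 residuals were above 0 on replicate 4 of C12 4h. The share over all genes was not counted.

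On this array the list varied more than the rest of the genes did. The residual SD on replicate 4 of C12 4h was 0.361 over the list and 0.112 over all genes, where the other C12 arrays had 0.124 to 0.204 over the list. Without this array the C12 4h value of EGR1 changed sign, to -0.33 ± 0.20 against 0.31 ± 0.29 with all arrays (SE), and those of NR4A1, FOSB and ZFP36 did so as well (-0.09, -0.07 and -0.08 without it, against 0.18, 0.12 and 0.21 with it). The value of DUSP5 was 0.12 ± 0.18 without the array and 0.47 ± 0.20 with it (SE), that of DUSP6 0.002 without it and 0.17 with it, that of ATF3 0.11 without it and 0.23 with it, and that of CCN2 0.02 without it and 0.15 with it. In all, 9 of 38 values changed sign and 13 more moved by over 1.5 times, counts that were not taken over all genes. None of these values passed with or without the array, and whether the difference came from its irradiated or its control plate cannot be told from a ratio.

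**Figure D4:**
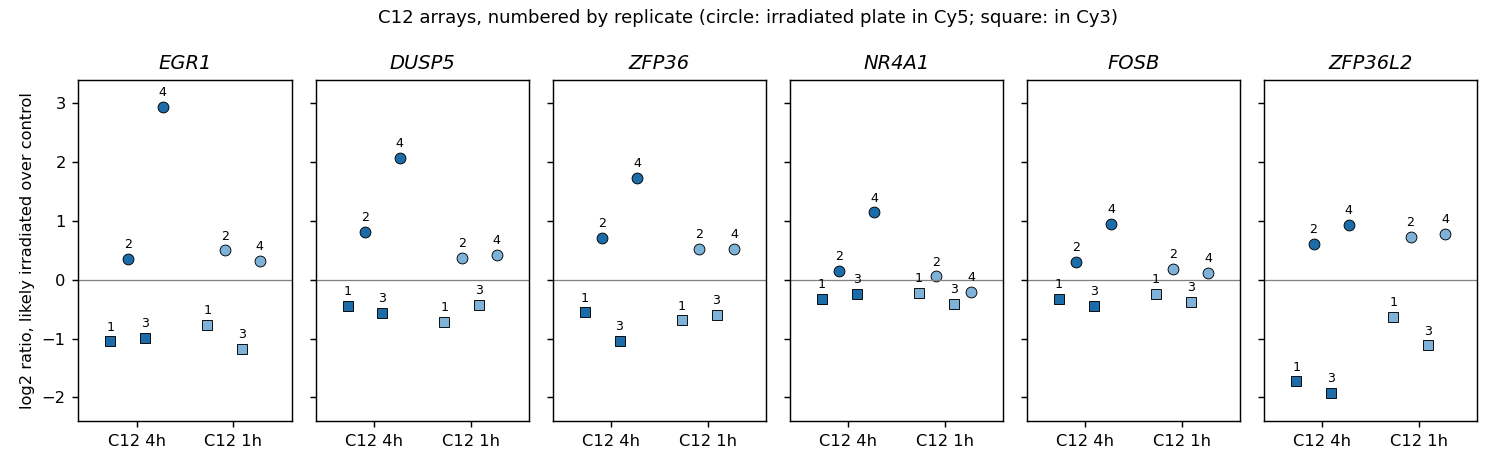
Points are the single arrays of C12 4h and C12 1h for 6 genes, numbered by replicate, with the log2 ratio, likely irradiated over control, on the vertical axis. Circles have the irradiated plate in Cy5 and squares in Cy3. Replicate 4 of C12 4h stands at 2.93 for EGR1 and 2.07 for DUSP5, far above replicate 2 of the same dye orientation, and ZFP36L2 is lowest on replicates 1 and 3 of C12 4h.

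Features of the same gene did not always give the same ratio. The 3 features of ATF3 read -0.08, 0.34 and 0.89 at X-ray 4h, and when each of 31332 features was tested alone the last passed (0.89 ± 0.16, SE, adjusted p = 0.00667). The same feature read 0.89 ± 0.16 at C12 4h (adjusted p = 0.0710), where the other ATF3 features read -0.27 and 0.08. For IER5, 1 feature read 0.86 ± 0.17 at X-ray 4h (SE, adjusted p = 0.0124) and the other -0.30 ± 0.25. For FOSL1, 1 feature passed at X-ray 4h (0.50 ± 0.11, SE, adjusted p = 0.0345) and the other read 0.15. For FOSL2, 2 of 4 features passed there, and all 4 were above 0, from 0.25 to 0.57. On the X-ray arrays alone none of these features passed: the adjusted p was 0.0596 for ATF3, 0.254 for IER5, 0.740 for FOSL1, and 0.606 and 0.596 for FOSL2.

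JUN and MYC had the most features. All 10 features of JUN were below 0 at X-ray 4h (-0.38 to -0.11) and at X-ray 1h (-0.53 to -0.30). The 12 features of MYC ran from -0.47 to -0.04 at X-ray 4h and from -0.46 to 0.08 at X-ray 1h, and 2 of the 12 stood near 0 at each time. In all, 6 of the 86 features of the list passed at X-ray 4h, from SNAI1, IER5, FOSL1, ATF3 and FOSL2. Of all 31332 features, 291 passed higher and 58 lower there. For 4h minus 1h after X-rays, 1 of the 86 passed, the SNAI1 feature, against 3 higher and 2 lower of all 31332. The SNAI1 feature also did not pass on the X-ray arrays alone (adjusted p = 0.596 at 4h and 0.99997 for 4h minus 1h). Which feature of ATF3 or IER5 tracks the main transcript was not tested.

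**Figure D5:**
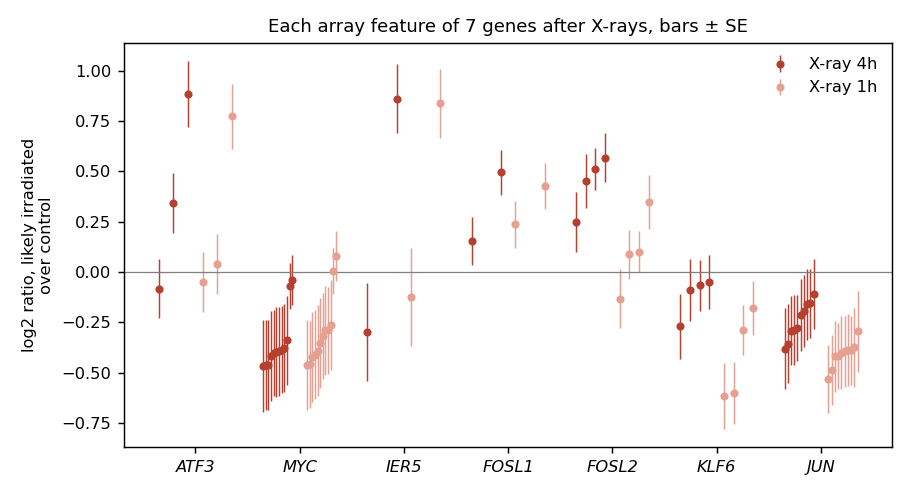
Points are single array features of 7 genes with bars of ± 1 SE, and the vertical axis is the fitted log2 ratio, likely irradiated over control, at X-ray 4h (dark) and X-ray 1h (light). The features of JUN lie together below 0, while those of ATF3 run from -0.08 to 0.89 and those of IER5 from -0.30 to 0.86 at X-ray 4h.

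C12 and X-rays were set against each other at each time, at doses that are not given here. No gene of the list passed. At 4h, where 0 genes of any kind were called (602 had an unadjusted p under 0.05 in limma's test), SNAI1 was at -0.02 after C12 and -0.55 after X-rays, a difference of 0.53 ± 0.15 (SE, C12 minus X-rays, adjusted p = 0.556). ZFP36L2 was at -0.53 after C12 and 0.19 after X-rays, a difference of -0.72 ± 0.25, and FOSL2 differed by -0.37 ± 0.14 (SE). At an unadjusted p under 0.05, 1 of 38 was higher after C12 (0.982% of all genes) and 3 were lower (2.3%).

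At 1h, 0.00545% of all genes were called higher and 0.0273% lower after C12 than after X-rays. SNAI1 was at 0.01 after C12 and 0.58 after X-rays, a difference of -0.57 ± 0.15 (SE, adjusted p = 0.9998). KLF6 was at 0.01 after C12 and -0.42 after X-rays, a difference of 0.43 ± 0.13 (SE). Its C12 arrays all lay above its X-ray arrays at 1h, which held for 1 of 38 genes, against 0.115% of all genes. DUSP1 differed by 0.37 ± 0.14 (SE), with 0.25 after C12 and -0.12 after X-rays. At an unadjusted p under 0.05, 3 of 38 were higher after C12 (1.01% of all genes) and 4 lower (0.889%).

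Genes around the list gave few calls. Of 42 measured of 44 other short-lived response transcripts, 0 were called in any of the 8 comparisons by limma, and 8 had an unadjusted p under 0.05 at X-ray 4h. Of 20 measured of 22 genes of the MAP kinase and serum response factor pathway upstream of the list, 1 was called, higher at X-ray 4h: RPS6KA1, an ERK-activated kinase, named after its values were seen (0.58 ± 0.13, SE, adjusted p = 0.0312). On the X-ray arrays alone its adjusted p was 0.485. Of 26 measured p53 targets of the direction control, 21 were called higher at X-ray 4h, 10 at X-ray 1h, 2 at C12 4h and 0 at C12 1h. The direction of this control was used to choose the sign and is no result.

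Housekeeping genes (13 measured of 16), epithelial and alveolar markers (9 of 9) and fibroblast, endothelial and blood markers (11 of 11) had 0 calls in all 8 comparisons, and at most 1 gene of each had an unadjusted p under 0.05 in any of them. X-ray 4h replicate 2 stood apart over all genes: its residual SD was 0.390, and the median of the housekeeping genes reached 0.57 on it. Leaving it out raised the genes of the list called at X-ray 4h to 6 (FOSL1, FOSL2 and ATF3 higher and KLF10, MYC and SNAI1 lower), while all genes called rose to 1982. The part of this array in the 2 calls with all arrays was not tested beyond that.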

How the data were processed

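The values were log2 ratios of 2 dyes on 16 Agilent arrays, deposited by the authors as 1 value for each of 45220 features and array; base 2 is assumed. Per the submitters' processing notes, limma was used (no version). How background and dyes were corrected, and which way the ratios run, is not given in the sources used here. The SD over features was 0.414 on each array, and every array had the same lowest value (-3.384) and the same highest value (2.932). The authors had therefore brought the arrays to nearly the same distribution, and values at the extremes reflect ranks on the array. No spot signals were used, and precision is limited by how many arrays there were.

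Features were named through the platform's annotation: 31332 had 1 symbol, 93 several (left out) and 13795 none here. Symbols were updated by Entrez identifier for 31291 features and kept for 41, and features of a symbol were averaged, which gave 18334 genes. Replicates 1 and 2 of each group were multiplied by -1. This equals the dye code of the irradiated plate times that of the other quality's array with the same number and time, and C12 arrays that share the other quality's code correlated with r from 0.801 to 0.853. This sign was chosen after values were seen.

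limma 3.58.1 with statmod 1.5.0 in R 4.3.3 fitted 4 group means and a dye coefficient for each radiation quality to all 16 arrays (residual degrees of freedom 10, prior 7.90). The Benjamini-Hochberg adjustment ran over all named genes within each of 8 comparisons (4 groups against 0, 4h minus 1h within each quality, C12 minus X-rays at each time). The procedure was run on simulated data. With the separate spread of each quality kept, only the mean estimates were held to a limit. False calls were held to a limit only in a run with the same spread of a gene on all arrays. These data do not have such a spread, so the simulation does not bound false calls after X-rays. The labels describe the arrays both as separate cultures and as RNA pooled from more than 1 experiment, and how these fit together is not given, so p-values measure the spread between arrays, part of which may be technical. Alternatives varied the dye term, replicate block, arrays fitted, array centring, features, array weights and direction, and left out each array in turn. An interaction of time and quality, a test of single features (also on the X-ray arrays alone), signs on C12 arrays without the dye term and fits without C12 4h replicate 4 were added after the data were seen.

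The genes, the lists and the rule for naming genes were chosen with earlier results of these data known. By that rule, array values are given for KLF6, SNAI1, ZFP36L2, genes that passed and the 3 smallest p in each comparison, and the others are named with estimates. EGR1, NR4A1, ZFP36, FOSB and CCN2 were also described on single arrays after their values were seen. Promoters are from RefSeq (GRCh38.p14) for up to 4 genes with the smallest p in the X-ray time comparison. Genes on chromosome 8 and genes without a promoter there were left out of this choice.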

Additional observations from a re-analysis of the deposited data

Results flagged for a closer look

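The dye-corrected log2 ratios of 152 gene groups of 4 arrays were examined for a single array far from the other 3 (the gap to the nearest array over the whole range above Dixon's critical value), which chance gives in about 1 in 20 groups. It was met in 13. At 4h after C12, replicate 4 was far above the others for ATF3 (0.54), DUSP5 (1.34) and DUSP6 (0.59), replicate 2 was highest for MYC (-0.0168) and replicate 3 lowest for IER3 (-0.11). At 4h after X-rays, replicate 4 was lowest for DUSP1 (-0.0662), replicate 1 lowest for DUSP6 (-0.26) and replicate 3 lowest for TRIB1 (-0.20). At 1h after X-rays, replicate 1 was lowest for EGR3 (-0.44) and highest for DUSP4 (0.34) and DUSP6 (0.11), and replicate 4 was lowest for FOSL1 (0.0128) and TRIB1 (-0.49).

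DUSP6 was apart on replicate 1 at both X-ray times: its other arrays lay between 0.62 and 0.69 at 4h and between -0.81 and -0.67 at 1h.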

How the results depend on the processing

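Medians were not compared for the alternatives of direction (turned by the labelled dye alone, or as deposited). Under the others run, they lay between -0.17 and 0.25 in the 8 comparisons. In each comparison, the median of the genes of the list moved by less than the spread between arrays. In the X-ray time difference (0.13) that spread was wide, and the median ran from -0.03 to 0.25 with 1 array left out and was -0.002 with array weights, so its sign was not kept. Counts of calls moved more, and the cause was not tested. With 1 dye coefficient for both qualities, genes called were 104 at X-ray 4h, 9 at X-ray 1h, 0 in the X-ray time difference and 0 for C12 minus X-rays at 1h, and genes of the list called were 0 at X-ray 4h and 0 for the X-ray time difference. With no dye coefficient they were 0 at C12 4h, 21 at X-ray 4h, 0 at X-ray 1h, 0 for the X-ray time difference and 0 for C12 minus X-rays at 1h, with 0 of the list in each. The adjusted p of SNAI1 was 0.302 at X-ray 4h and 0.449 for the time difference with a shared dye coefficient, and that of FOSL2 0.225. With only the arrays of the quality, genes called were 4 at C12 4h, 41 at X-ray 4h, 6 at X-ray 1h, 2 for 4h minus 1h after C12 and 0 after X-rays, with 0 of the list after X-rays. With only the groups compared they were 26 at C12 4h (1 of the list, ZFP36L2), 83 at X-ray 4h, 1 at X-ray 1h, 2 for the C12 time difference, 0 for the X-ray time difference and 2 for C12 minus X-rays at 1h, with 0 of the list after X-rays. Array weights gave 24 at C12 4h, 1502 at X-ray 4h (5 of the list: FOSL2, JUND, KLF10, MYC and SNAI1), 7 at X-ray 1h, 3 for the C12 time difference, 30 for the X-ray time difference, 288 for C12 minus X-rays at 4h (1 of the list, SNAI1) and 0 at 1h. Turned by the labelled dye alone, or as deposited, 0 genes were called at C12 4h, X-ray 4h, X-ray 1h, in the X-ray time difference and for C12 minus X-rays at 1h, and 0 of the list. With array medians at 0, 6 genes were called in the X-ray time difference and 1 of the list, SNAI1, at X-ray 1h (adjusted p = 0.0302). The median of a gene's features gave 1 gene at C12 4h.

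The replicate number as a fixed block gave 1 gene at C12 4h and 1 of the list, SNAI1, at X-ray 1h (adjusted p = 0.04998), and as a random block 5 genes in the X-ray time difference and SNAI1 at X-ray 1h (adjusted p = 0.0496). Deviations of arrays of the same number correlated with r from -0.312 to 0.227. They were taken after removing a dye coefficient fitted to both times of a quality together, which pulls r down within a quality. Whether the numbers pair the arrays is therefore not settled by these r. Leaving out each array in turn, genes called ranged from 1 to 3 at C12 4h, 0 to 0 at C12 1h, 138 to 1982 at X-ray 4h, 12 to 38 at X-ray 1h, 0 to 1 in the C12 and 0 to 1178 in the X-ray time difference, and 0 to 2 at 4h and 0 to 8 at 1h for C12 minus X-rays. Genes of the list called ranged from 0 to 6 at X-ray 4h, 0 to 1 at X-ray 1h and 0 to 2 in the X-ray time difference, and stayed at 0 in the other comparisons. At X-ray 4h, 1982 genes were called without X-ray 4h replicate 2 and 138 without X-ray 4h replicate 1. At X-ray 1h, 38 were called without X-ray 1h replicate 1 and 34 without X-ray 4h replicate 2. In the X-ray time difference, 1178 genes were called without X-ray 4h replicate 2 and 52 without X-ray 1h replicate 1 (SNAI1 and DUSP6 of the list in both), and 0 without X-ray 4h replicate 3 or X-ray 1h replicate 2. Calls between C12 and X-rays at 1h fell to 0 without C12 1h replicate 2, 3 or 4 or X-ray 1h replicate 1 or 2.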
